A study of Mus musculus with 8 samples.

Results

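Transcripts of 9 secreted serine proteases were followed in brain pericyte cultures: the HtrA proteases *Htra1*, *Htra3* and *Htra4*, the PRSS proteases *Prss12*, *Prss23*, *Prss35* and *Prss46*, and the chymases *Cma1* and *Cma2*. These 9 of the 54532 gene identifiers in the deposited tables were chosen from their family and with their changes between TGF-β1 and vehicle in this contrast already known. Their changes are therefore a description, and no p-value is given for them. RNA was sequenced from primary pericyte cultures of wild-type mouse brain, and 4 cultures received TGF-β1 (5 μg per mL) while 4 received vehicle, all for 48 h. Nothing else was said to differ between the groups, and the labels give replicate numbers 1 to 4 to vehicle and 5 to 8 to TGF-β1. The methods describe 4 independent isolates given both treatments, whereas the labels pair no cultures, so an unpaired comparison was made. No source used here says how many animals stood behind a culture.

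A serine protease cuts proteins with a serine in its active site, and the secreted ones act on matrix, growth factors and receptors outside the cell. HtrA proteases are trypsin-like enzymes with a PDZ domain, and loss of HTRA1 in people causes an inherited disease of the small vessels of the brain. *Prss12* encodes neurotrypsin, which cuts agrin at synapses. *Prss23* and *Prss35* are closely related genes best known from the ovary. Chymases are granule proteases of mast cells, and several mast cell and granzyme genes lie beside them on one chromosome. TGF-β1 is a cytokine that acts through SMAD proteins and drives the making of matrix in many cells.

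The coding sequences differ around the active site, which is why they are shown: each line holds 33 bases of coding sequence from GENCODE M21 on GRCm38, with the codon at the place of the active-site serine in capitals.
Htra1: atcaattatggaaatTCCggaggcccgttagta
Htra3: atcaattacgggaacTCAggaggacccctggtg
Htra4: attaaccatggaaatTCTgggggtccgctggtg
Prss12: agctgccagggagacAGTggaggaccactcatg
Prss23: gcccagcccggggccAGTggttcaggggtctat
Prss35: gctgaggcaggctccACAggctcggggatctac
Prss46: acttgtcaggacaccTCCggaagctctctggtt
Cma1: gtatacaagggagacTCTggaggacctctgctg
Cma2: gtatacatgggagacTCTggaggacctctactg
Mcpt9: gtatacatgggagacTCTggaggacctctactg
Mcpt8: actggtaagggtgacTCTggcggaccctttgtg
The codon meant serine in 8 of the 9 genes and threonine in *Prss35*. It lay in exon 5 of 9 in all 3 HtrA genes, in the last exon of *Prss12* (exon 11 of 11), and in exon 5 of 5 in *Prss46*, *Cma1* and *Cma2*. For *Prss46* it stood at chr9:110856006-110856008 and for *Cma2* at chr14:55973688-55973690, both on the plus strand. *Mcpt8* and *Mcpt9*, further protease genes of the chymase locus, are not among the 9 and are shown because they return below. The window of *Mcpt9* was letter for letter that of *Cma2*. Over their whole coding sequence these 2 genes differed at 14 of 738 bases and were 98.1% identical. *Cma1* and *Cma2* were 66.9% identical over their aligned coding bases, *Prss23* and *Prss35* 66.4%, and the HtrA genes 67.7% to 68.5% in pairs.

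The libraries were deep and alike. Counts per culture summed to between 45255235 and 47651397 with vehicle and between 45988208 and 46827358 with TGF-β1 (exact permutation test of the totals, two-sided, p = 0.857; 4 cultures against 4 allow no p under 0.0286). Levels are given in CPM, the count scaled to library size after TMM normalization, and a count of 3 was worth 0.0631 to 0.0657 CPM. Most low counts were even numbers, 68.5% to 70.2% of those between 1 and 20, so a count may not be 1 independent fragment. The pericyte genes *Pdgfrb* (202 ± 5.43 CPM with vehicle, SD, n = 4), *Cspg4* and *Notch3* were well expressed, but *Kcnj8* reached at most 2 counts, *Abcc9* 9 and *Vtn* 6. The fibroblast gene *Col1a1* was abundant (1586 ± 36.8 CPM with vehicle, SD, n = 4), whereas *Lum* and *Slc6a13* of the same list had at most 6 counts. The endothelial genes *Cdh5*, *Flt1* and *Kdr* stood at 375, 81.6 and 17.9 CPM with vehicle, whereas *Pecam1* had at most 75 counts and *Cldn5* at most 10. In edgeR's test 4 of 9 tested pericyte markers were called higher and 2 lower, 2 and 2 of 5 fibroblast, 2 and 1 of 6 endothelial, 1 and 0 of 6 macrophage and microglia, and 2 and 1 of 4 astrocyte markers. The part of these cell types in the results was not tested. In edgeR's quasi-likelihood test, 9304 of 22544 genes tested (41.3%) had an adjusted p under 0.05 between the groups. Of all genes tested, 20.9% were called higher and 20.3% lower with TGF-β1, and the groups did not overlap in 37.9%.

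All 9 proteases passed the expression filter, at levels that spanned more than 2 orders of magnitude. The filter used the counts of both groups, and for *Prss46* and *Cma2* the TGF-β1 cultures alone were enough. Among them 5 had an adjusted p under 0.05, beside 41.3% of all genes: *Htra1*, *Prss12*, *Prss46* and *Cma2* were higher (4 of 9, beside 20.9%) and *Htra4* was lower (1 of 9, beside 20.3%). In 3 of the 9, *Prss12*, *Prss46* and *Cma2*, every TGF-β1 culture lay above every vehicle culture (37.9% of all genes did not overlap). Because the genes were chosen on this contrast, nothing is read from these shares. The median log2 fold change was 0.14 for the 9 genes and -0.01 for all genes tested, and the median of its size was 0.37 and 0.18. A change of more than 2 on the log2 scale was seen in 2 of the 9 and in 186 of all genes tested (0.825%), whereas 3 of the 9 changed by less than 0.2.

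**Figure D1:**
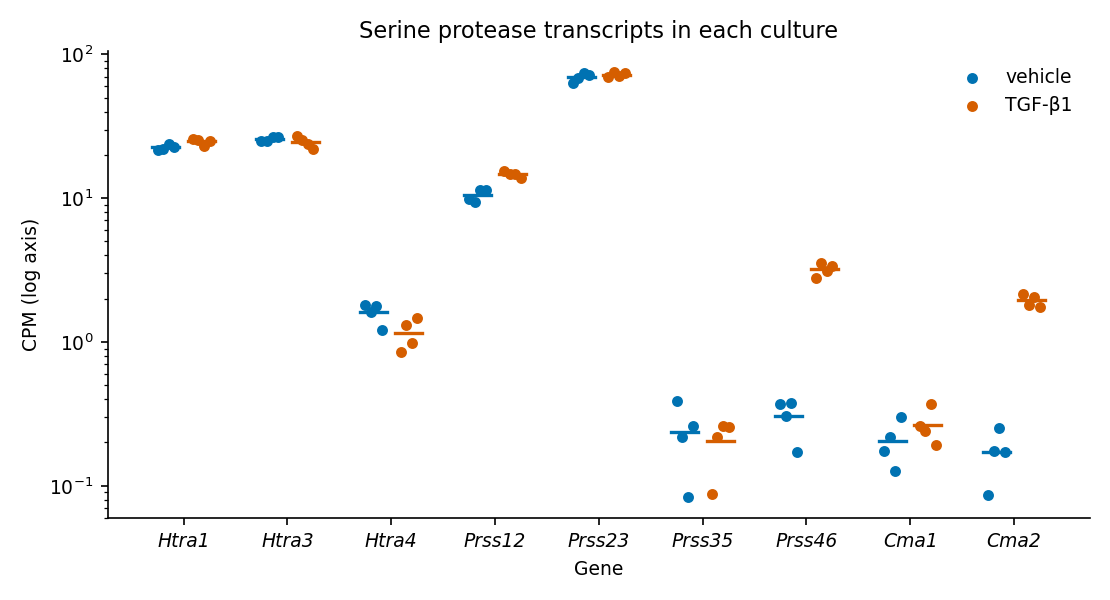
Levels of the 9 protease transcripts in each culture, in CPM on a log axis; points are single cultures (4 vehicle, 4 TGF-β1) and lines are group means. *Prss46* and *Cma2* sit below 0.4 CPM with vehicle and above 1.7 CPM with TGF-β1, while most other genes overlap between the groups.

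*Prss46* (ENSMUSG00000049719) encodes a little-studied PRSS protease, and it lies on the plus strand of chromosome 9 from 110844506 to 110856522. Its counts were 17, 14, 18 and 8 in the vehicle cultures and 128, 164, 143 and 158 in the TGF-β1 cultures. All 4 vehicle cultures were low and all 4 TGF-β1 cultures were high, with no overlap. The level was 0.307 ± 0.0945 CPM with vehicle and 3.21 ± 0.334 CPM after TGF-β1 (SD, n = 4 each), for a log2 fold change of 3.37 (standard error, SE, 0.20), or 10.4-fold. No exon of another annotated gene overlapped it, and none of its 1295 distinct 50-base transcript words occurred in a transcript of another gene.

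*Prss46* was the only gene of its cluster to pass the expression filter. Its TGF-β1 cultures alone were enough for that, so passing is not independent of the contrast on which it was chosen. The 6 protein-coding genes of the cluster, *Prss42*, *Prss44*, *Prss43*, *Prss45*, *Prss46* and *Prss50*, follow each other on the same strand. None of the other 5 exceeded 12 counts in any culture. *Prss45*, which ends 3193 bases before *Prss46*, had 0 counts in every vehicle culture and at most 2 with TGF-β1. *Prss50*, 1445 bases beyond it, had at most 2 counts with vehicle and at most 6 with TGF-β1.

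*Cma2* (ENSMUSG00000068289), the second chymase gene, spans 55950980 to 55974031 on the plus strand of chromosome 14. It had 4, 8, 12 and 8 counts with vehicle and 99, 83, 95 and 83 counts with TGF-β1. The lowest TGF-β1 culture thus held many times the counts of the highest vehicle culture. In CPM this was 0.172 ± 0.0677 (SD, n = 4) against 1.95 ± 0.194 (SD, n = 4), a log2 fold change of 3.48 (SE 0.26), or 11.2-fold. Of its 1049 distinct 50-base words, 39.9% occurred in other genes' transcripts, 35.0% in *Mcpt9* and 5.53% in *Mcpt4*. How the authors' counting treated reads that fit several genes is not given in the sources used here, so part of this count could belong to *Mcpt9*. The pseudogene *Mcpt-ps1*, which overlaps 4.37% of its exon length, had at most 2 counts with vehicle and 7 with TGF-β1.

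*Cma1* (ENSMUSG00000022225) encodes a protease of connective tissue mast cells, and ends 6305 bases before *Cma2* begins, at 55941451 to 55944675 on the minus strand. It had 8, 10, 6 and 14 counts with vehicle and 12, 11, 17 and 9 with TGF-β1, so the groups overlapped. The means were 0.205 ± 0.0753 and 0.266 ± 0.0758 CPM (SD, n = 4 each), a log2 fold change of 0.37 (SE 0.41). A small change in *Cma1* was not detectable at this depth.

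Another gene of this locus, *Mcpt8*, which is not among the proteases followed here, also rose with TGF-β1. The list of locus genes that holds *Mcpt8* was written with earlier results of these data known. Its TGF-β1 cultures alone were enough to pass the expression filter. The rise of *Mcpt8* and its adjusted p are therefore a description and not an independent result. *Mcpt8* (ENSMUSG00000022157) encodes a protease best known from basophils and lies at 56082166 to 56085273 on the minus strand. It went from 14, 22, 20 and 10 counts with vehicle to 139, 161, 163 and 145 with TGF-β1, from 0.356 ± 0.119 to 3.29 ± 0.274 CPM (SD, n = 4 each). The log2 fold change was 3.20 (SE 0.20, adjusted p = 3.44e-18 in the edgeR test). Unlike *Cma2*, it shared none of its 998 words of 50 bases with another gene. *Mcpt9* had 4, 3, 4 and 2 counts with vehicle and 8, 16, 14 and 22 with TGF-β1. These did not overlap but were too few for the expression filter. Of its 50-base words, 18.8% occurred in *Cma2*, so some or all of these counts could belong to *Cma2*.

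The rest of the chymase and granzyme cluster was close to silent. Between *Cma1* and *Gzmb*, at the far end, lie 15 protein-coding genes, of which only *Cma1*, *Cma2* and *Mcpt8* were tested. For *Cma2* and *Mcpt8* the TGF-β1 cultures alone were enough to pass the expression filter. The other 12 never exceeded 22 counts, the highest value of *Mcpt9*, and 2 of them, *Mcpt2* and *Gzmd*, had 0 counts in every culture. The granzyme genes and *Ctsg*, a cathepsin of granulocytes, had at most 4 counts. Summed over all 15 genes, *Cma1* and *Cma2* included, the level was 0.952 to 1.07 CPM with vehicle and 5.76 to 6.39 CPM with TGF-β1. Most of the difference came from *Cma2* (mean 0.172 CPM with vehicle and 1.95 CPM with TGF-β1) and *Mcpt8* (0.356 and 3.29 CPM). The sum is thus no sign of a rise across the cluster.

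**Figure D2:**
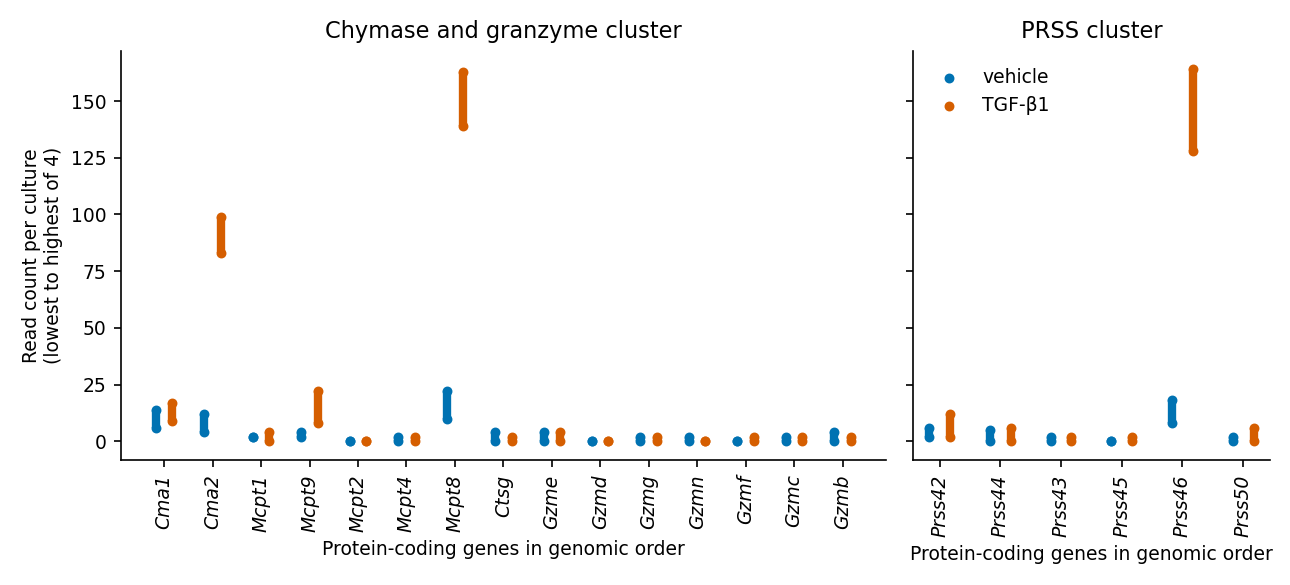
Read counts per culture of the protein-coding genes of the chymase and granzyme cluster (chromosome 14) and of the PRSS cluster (chromosome 9), in genomic order; bars run from the lowest to the highest of 4 cultures in each group. In the TGF-β1 cultures *Cma2* reaches 83 to 99 counts, *Mcpt8* 139 to 163 and *Prss46* 128 to 164, and no other gene in either cluster exceeds 22.

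Because chymases are markers of mast cells, a list of mast cell markers was examined. It holds *Mcpt1*, *Mcpt2* and *Mcpt4*, which also belong to the cluster above. No list of basophil markers was examined, although *Mcpt8* is best known from those cells. Of 12 mast cell markers, 1 was at 0 in every culture, *Mcpt2*, and 9 others were too low to be tested, none above 9 counts. *Cpa3*, the granule carboxypeptidase, had at most 2 counts with vehicle and 3 with TGF-β1, the tryptase *Tpsb2* at most 2 in both, and the IgE receptor gene *Fcer1a* at most 4 in both. *Kit*, the receptor for stem cell factor, had 0 to 8 counts with vehicle and 0 to 2 with TGF-β1. The 2 tested markers went opposite ways: *Hdc*, which makes histamine, fell by 1.13 on the log2 scale (SE 0.20, adjusted p = 5.74e-06, edgeR) and the transcription factor *Gata2* rose by 0.38 (SE 0.12, adjusted p = 0.00622, edgeR). The summed level of the list was 4.88 to 6.43 CPM with vehicle and 4.96 to 6.02 CPM with TGF-β1. Most of this sum came from *Hdc* (mean 1.91 CPM with vehicle and 0.873 CPM with TGF-β1) and *Gata2* (3.31 and 4.32 CPM). In bulk RNA, fewer cells of a type and less RNA per cell cannot be told apart.

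*Prss12* (ENSMUSG00000027978; chromosome 3, 123446913 to 123506597, plus strand), the neurotrypsin gene, was the third with a clean separation. Its counts were 453, 432, 543 and 525 with vehicle and 706, 680, 675 and 645 with TGF-β1. The lowest TGF-β1 culture stood above the highest vehicle culture, though by far less than for *Prss46* or *Cma2*. The level was 10.5 ± 1.02 CPM with vehicle and 14.7 ± 0.696 CPM after TGF-β1 (SD, n = 4 each), for a log2 fold change of 0.48 (SE 0.07) or 1.39-fold. Its neighbour *Snhg8*, a noncoding RNA gene 955 bases away, also rose, by 0.41 (SE 0.07, adjusted p = 1.29e-05, edgeR). An antisense gene, *Gm35065*, shares 6.03% of the exon length of *Prss12* and had at most 7 counts.

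Of the 3 HtrA genes, *Htra1* was slightly higher, *Htra3* overlapped between the groups, and *Htra4* was lower. *Htra1* (ENSMUSG00000006205; chromosome 7, 130936111 to 130985660, plus strand) had 999, 1001, 1136 and 1055 counts with vehicle and 1176, 1170, 1063 and 1177 with TGF-β1. The groups overlapped through vehicle replicate 3 and TGF-β1 replicate 7, at 22.6 ± 1.01 and 24.8 ± 1.13 CPM (SD, n = 4 each). The log2 fold change was 0.14 (SE 0.05), and the gene was no longer called without vehicle replicate 1 or 2 or TGF-β1 replicate 5 or 6. *Plekha1*, on its left, rose by 0.53 (SE 0.04, adjusted p = 3.71e-16, edgeR).

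*Htra3* (ENSMUSG00000029096) spans 35652023 to 35679782 on the minus strand of chromosome 5. Its counts were 1148, 1139, 1269 and 1238 with vehicle and 1233, 1169, 1098 and 1037 with TGF-β1. The level was 25.8 ± 1.05 CPM with vehicle and 24.6 ± 2.07 CPM with TGF-β1 (SD, n = 4 each), a log2 fold change of -0.07 (SE 0.05).

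*Htra4* (ENSMUSG00000037406; chromosome 8, 25024929 to 25038962, minus strand) was the only one of the 9 called lower. It had 84, 74, 84 and 56 counts with vehicle and 39, 60, 45 and 69 with TGF-β1. These overlapped, since vehicle replicate 4 was below TGF-β1 replicates 6 and 8. The level was 1.61 ± 0.275 and 1.15 ± 0.285 CPM (SD, n = 4 each), a log2 fold change of -0.48 (SE 0.19). The call was lost in DESeq2, with a filter of 1 count in any culture, and when vehicle replicate 1, 2 or 3 or TGF-β1 replicate 5 or 7 was left out. *Htra4* shares 32.9% of its exon length with *Gm16933*, a noncoding gene on the other strand with at most 5 counts.

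The fourth HtrA gene, *Htra2*, is not among the 9, since its protein works in mitochondria. *Htra2* rose from 20.2 ± 1.48 to 29.2 ± 1.80 CPM (SD, n = 4 each), with every TGF-β1 culture above every vehicle culture. Its log2 fold change was 0.53 (SE 0.05, adjusted p = 1.24e-11, edgeR). Its exons overlap *Loxl3* over 18.2% and *Aup1* over 25.6% of the total, which makes its count uncertain.

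**Figure D3:**
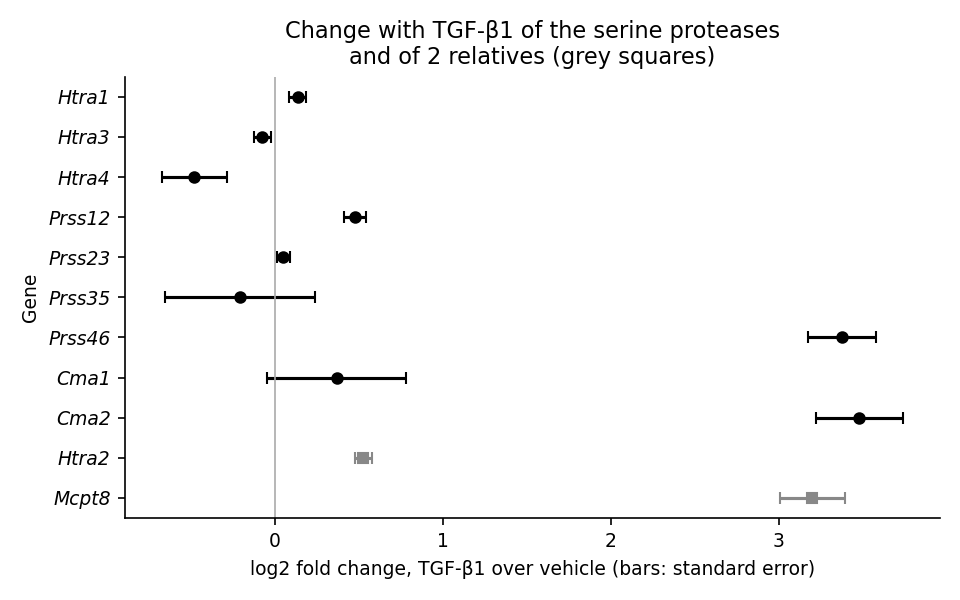
log2 fold change of TGF-β1 over vehicle for the 9 proteases (black circles) and for the relatives *Htra2* and *Mcpt8* (grey squares), with standard errors as bars. *Prss46* (3.37), *Cma2* (3.48) and *Mcpt8* (3.20) lie apart from the other genes, which lie between -0.48 and 0.53.

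*Prss23* (ENSMUSG00000039405; chromosome 7, 89507783 to 89527187, minus strand) was the most abundant of the 9. It had 2926, 3111, 3557 and 3335 counts with vehicle and 3176, 3466, 3227 and 3474 with TGF-β1. The groups overlapped, at 69.6 ± 4.96 and 72.2 ± 2.90 CPM (SD, n = 4 each), a log2 fold change of 0.05 (SE 0.04). It was called in 1 of the 15 alternatives, without vehicle replicate 3. The antisense gene *Prss23os* covers 22.9% of its exon length, and the counting's strand setting is not given in the sources used here. *Prss23os* had 72 to 96 counts with vehicle and 70 to 87 with TGF-β1 (log2 fold change -0.12, SE 0.16, adjusted p = 0.583, edgeR).

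*Prss35* (ENSMUSG00000033491), the relative of *Prss23* with the threonine codon, lies at 86743649 to 86758443 on the plus strand of chromosome 9. It was near the limit of detection, with 18, 10, 4 and 12 counts with vehicle and 4, 10, 12 and 12 with TGF-β1. The level was 0.238 ± 0.126 and 0.205 ± 0.0811 CPM (SD, n = 4 each), with a log2 fold change of -0.21 (SE 0.45), whose sign turned without vehicle replicate 1 (0.14) or without TGF-β1 replicate 5 (0.04). The related pair thus stood far apart in level and overlapped between the groups in both genes.

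Levels were compared between the genes per kilobase of exon. With vehicle the order was *Prss23* at 18.5 ± 1.32 CPM per kb (SD, n = 4), *Htra1* at 7.84, *Htra3* at 5.82, *Prss12* at 4.04 and *Htra4* at 0.668. Below these, *Prss46* (0.228), *Cma1* (0.188) and *Cma2* (0.156) overlapped in range, and *Prss35* was last at 0.0692, with a range that reached that of *Cma2*. With TGF-β1, *Prss23* (19.2) and *Htra1* (8.62) kept their places, and *Prss12* (5.63) stood beside *Htra3* (5.54) with overlapping ranges. *Prss46* at 2.38 ± 0.248 CPM per kb and *Cma2* at 1.77 ± 0.177 (SD, n = 4 each) then came before *Htra4* at 0.479, where both had been below it with vehicle. *Cma1* (0.244) and *Prss35* (0.0596) were lowest.

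The spread between cultures was widest in the genes with few counts. With vehicle, the coefficient of variation of the CPM was 4.06% for *Htra3*, 4.46% for *Htra1*, 7.12% for *Prss23*, 9.69% for *Prss12* and 17.1% for *Htra4*. It was 30.8% for *Prss46*, 36.7% for *Cma1*, 39.4% for *Cma2* and 52.9% for *Prss35* with vehicle. With TGF-β1 it was 10.4% for *Prss46* and 9.96% for *Cma2*, whereas *Cma1* stayed at 28.5% and *Prss35* at 39.5%.

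Promoter sequence from RefSeq on GRCm38.p6, 250 bases before to 50 after the start, was at hand for 7 of the 9 genes; it is shown for the 2 called members with the clearest separation that had one, and for *Mcpt8*. Capitals mark CAGAC, a SMAD-binding element, TGANTCA, an AP-1 site, and GGAATG, a TEAD site, on either strand.
Prss46, chr9:110844256-110844555, plus strand: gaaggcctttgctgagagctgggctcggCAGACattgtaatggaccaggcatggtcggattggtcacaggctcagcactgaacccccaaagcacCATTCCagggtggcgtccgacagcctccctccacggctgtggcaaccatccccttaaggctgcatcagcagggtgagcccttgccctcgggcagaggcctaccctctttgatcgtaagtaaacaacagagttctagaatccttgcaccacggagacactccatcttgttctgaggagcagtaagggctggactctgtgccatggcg
Prss12, chr3:123446663-123446962, plus strand: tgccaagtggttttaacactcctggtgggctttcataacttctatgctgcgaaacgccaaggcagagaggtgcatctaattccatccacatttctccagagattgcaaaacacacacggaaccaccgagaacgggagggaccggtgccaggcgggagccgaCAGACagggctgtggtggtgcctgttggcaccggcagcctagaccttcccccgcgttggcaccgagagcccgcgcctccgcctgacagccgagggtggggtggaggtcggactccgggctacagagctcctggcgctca
Mcpt8, chr14:56085148-56085447, minus strand: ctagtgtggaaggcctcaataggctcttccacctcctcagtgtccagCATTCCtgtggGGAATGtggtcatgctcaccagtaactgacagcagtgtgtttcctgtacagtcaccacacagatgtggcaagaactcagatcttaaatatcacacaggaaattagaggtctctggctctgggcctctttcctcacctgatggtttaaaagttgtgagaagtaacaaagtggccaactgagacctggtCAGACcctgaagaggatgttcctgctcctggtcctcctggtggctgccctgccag
*Prss46* held 1 CAGAC and 1 GGAATG, *Prss12* 1 CAGAC, and *Mcpt8* 1 CAGAC and 2 GGAATG. Of the 7 genes, 3 held a CAGAC in any listed promoter (*Prss46*, *Prss12* and some starts of *Prss23*), 1 a TGANTCA (*Prss23*) and 1 a GGAATG (*Prss46*). These count genes over 13 promoters, since *Prss23* has several starts, whereas the shares that follow count single promoters. Among 32851 promoters of the same length, 49.6% held CAGAC, 7.81% TGANTCA and 14.7% GGAATG. No motif overlapped another in the windows shown. A match is a description of the letters and says nothing of binding.

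For each gene of at least 1 CPM, the genes with the most similar pattern over the 8 cultures were listed by Pearson's r of log2 CPM, as a description, since the points fall into 2 groups. *Prss46* was most like *Fam20a*, a secretory pathway pseudokinase (r = 0.998), then *Depdc7* (r = 0.997) and *Tmeff1* (r = 0.996). *Cma2* was most like *Ndc1*, *Pim3* and *Flt1* (r from 0.996 to 0.998), and *Prss12* most like *Slc35e1* (r = 0.992). Pearson's r does not measure the size of a change. The log2 fold changes of *Ndc1*, *Pim3* and *Flt1* were 0.40, 0.65 and 0.28, beside 3.48 for *Cma2*. For *Fam20a* it was 1.01, beside 3.37 for *Prss46*. The closest gene to *Htra1* was *Gm27365* (r = 0.987), to *Htra3* *Fam135b* (r = 0.961), to *Htra4* *Gm44220* (r = 0.964) and to *Prss23* *Pop7* (r = 0.981).

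Other serine proteases moved in both directions. Of 35 other numbered PRSS genes, 3 were at 0 in every culture and 8 were tested, of which 1 rose and 1 fell. The share called was 25.0%, beside 41.3% of all genes. *Prss16*, a thymus protease, fell by 0.54 (SE 0.10, adjusted p = 2.59e-05, edgeR), and the riser was *Prss56*, at 4 to 9 counts with vehicle and 12 to 22 with TGF-β1. Of 84 further trypsin-fold proteases, 26 were tested, 6 rose and 6 fell (46.2% called), with a median log2 fold change of -0.02. *Reln*, the gene of the matrix protein reelin, which the list holds although it is not a typical member of that fold, fell by 2.02 (SE 0.08, adjusted p = 8.57e-25, edgeR), *Tmprss2* fell by 1.53 and *Cela1*, an elastase, rose by 0.46.

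Inhibitors of serine proteases included some of the larger changes. The list was set by gene name, and whether each product inhibits a protease was not examined. Of its 105 genes, 52 were tested, with 14 higher, 14 lower and a median log2 fold change of 0.03. The share called was 53.8%, beside 41.3% of all genes. *Serpinb9g*, of the family that inhibits granzyme B, rose by 2.15 (SE 0.21, adjusted p = 1.80e-11, edgeR), to 2.61 CPM. Other genes of this family went both ways. *Serpinb9* itself fell by 0.32 (SE 0.03, adjusted p = 3.85e-11, edgeR), from 76.0 to 60.8 CPM, and *Serpinb9b* fell by 0.20. *Serpinb9e* and *Serpinb9f* were called higher (log2 fold changes 1.59 and 1.34), and *Serpinb9c* was not called (0.62). *Serpinb2* rose by 2.05 (SE 0.09, adjusted p = 4.54e-23, edgeR). The summed level of the list was 2469 to 2570 CPM with vehicle and 3037 to 3141 CPM with TGF-β1. Much of the difference came from *Serpinh1* (mean 630 CPM with vehicle and 817 CPM with TGF-β1) and *Serpinf1* (559 and 740 CPM). The sum is therefore not a measure of protease inhibition.

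Proteins reported as substrates of these proteases were also examined, as 17 genes of which 15 were tested, 5 rose and 7 fell, with a median log2 fold change of -0.14. The share called was 80.0%, beside 41.3% of all genes. The lists were written with earlier results of these data known, so nothing is read from their shares. *Igfbp5*, an IGF-binding protein cut by HtrA1, fell from 68.5 ± 6.69 to 4.35 ± 0.953 CPM (SD, n = 4 each), where the log2 value fell by 3.98 (SE 0.14, adjusted p = 2.58e-07, edgeR). *Edn1*, the endothelin precursor gene whose product chymase cuts, rose by 1.75 (SE 0.16, adjusted p = 2.56e-12, edgeR). *Bgn*, the matrix proteoglycan biglycan, rose by 1.06 (SE 0.02, adjusted p = 2.36e-36, edgeR). *Agrn*, the agrin gene and the known substrate of neurotrypsin, had a log2 fold change of -0.05 (SE 0.02, adjusted p = 0.0896, edgeR); it was named after its value was seen, as was *Ltbp1*, a latent TGF-β binding protein, which rose by 0.76 (SE 0.03, adjusted p = 4.31e-27, edgeR).

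**Figure D4:**
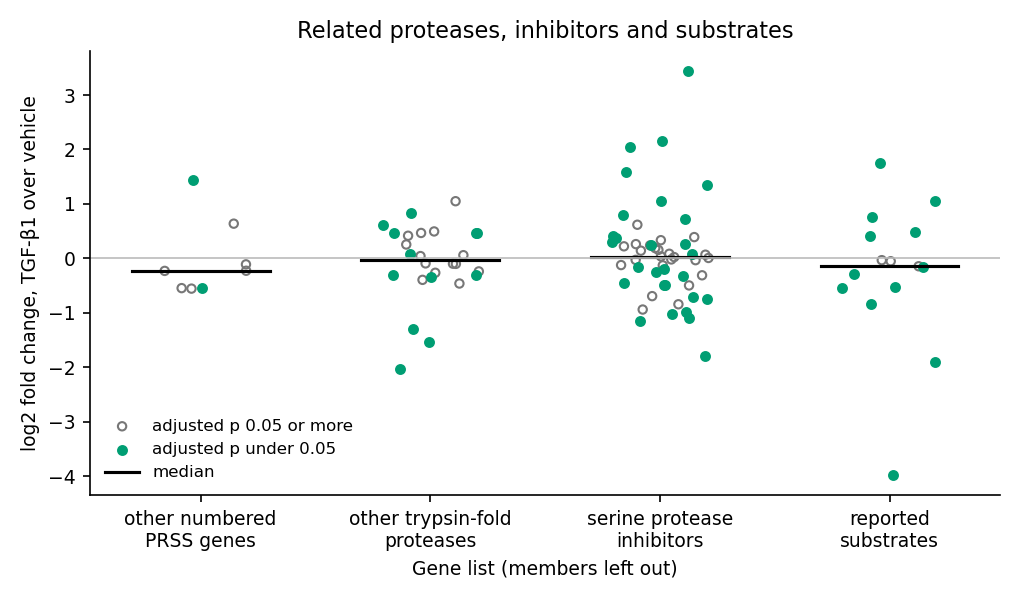
log2 fold change of TGF-β1 over vehicle for the tested genes of 4 lists around the 9 proteases, which are left out; filled points have an adjusted p under 0.05 and black lines are medians. Changes run in both directions in every list, and the medians lie between -0.23 and 0.03.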

How the data were processed

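Bulk RNA-seq of 8 mouse brain pericyte cultures (stranded total RNA kit) was analysed, 4 with TGF-β1 and 4 with vehicle. The authors aligned reads to mm10 with STAR 2.7.5c in 2-pass mode, took out PCR duplicates (SAMtools 1.15) and obtained counts per gene from featureCounts 2.0.3. They deposited raw counts per Ensembl gene, 1 library per culture, without normalization. The strand setting, annotation and handling of shared reads are not given in the sources used here. Of 54532 identifiers, 54409 were matched to a symbol and 54495 to a position in GENCODE M21 (GRCm38).

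All genes were fitted with edgeR 4.0.16 in R 4.3.3 (filterByExpr, TMM, robust quasi-likelihood test), with Benjamini-Hochberg adjustment over 22544 genes and a threshold of 0.05. Standard errors (SE) came from the log2 fold change and the root of its F value. CPM used TMM-scaled totals. The study's tool, DESeq2 1.42.0, was an alternative. The code was tested on simulated data. Pairs of cultures within a group gave a chi-square over degrees of freedom of 2.25 to 3.93 (counts halved, 1.14 to 2.11), so none was taken as a repeat library. The paper calls the isolates independent and the points biological replicates. No source says that cultures came from separate animals, so p-values measure only the spread between cultures.

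The 9 genes and the lists around them were chosen with earlier results of these data known. Named were all 9, their neighbouring and overlapping genes, the 3 genes of at least 1 CPM with the largest significant change in each list, and the 3 genes most like each member. Further genes were named after their values were seen. Not every gene under this rule is reported here. Coding identity was taken from global alignments, and 50-base words were searched on both strands of all GENCODE M21 transcripts. Protein sequences were not used here, nor promoters of *Htra4* and *Cma2*. Alternatives were DESeq2, other scalings, 2 other filters, counts halved to fragments, another prior count and each culture left out.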

Additional observations from a re-analysis of the deposited data

Results flagged for a closer look

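Over 72 sets of 4 same-group values, 1 stood apart by Dixon's test, and chance flags about 1 in 20, or 3.6. It was *Bgn* in vehicle replicate 1, at 1076 CPM beside 1052 CPM in the closest vehicle culture. The cause was not tested.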

How the results depend on the processing

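No paired analysis was possible because the labels number the vehicle cultures 1 to 4 and the TGF-β1 cultures 5 to 8. The number of the 9 proteases called, 5, became 3 with at least 10 counts required in every culture, where 5 of the 9 were tested and *Prss46* and *Cma2* were not, and it ranged from 3 to 5 with each culture left out. It was 3 without vehicle replicate 1 or 2 or TGF-β1 replicate 5. *Prss12* was called in 15 of 15 alternatives, and *Prss46* and *Cma2* in 14 of the 14 that tested them, with log2 fold changes of 0.43 to 0.53, 3.18 to 3.50 and 3.21 to 3.73. *Prss35*, not called, changed sign, from -0.21 to 0.14 without vehicle replicate 1 and to 0.04 without TGF-β1 replicate 5 (log2 fold changes). No called gene refitted under these alternatives changed direction, and the call of *Tek*, an endothelial gene, was lost without vehicle replicate 1 (adjusted p = 0.115, edgeR). The number of genes called over all genes was 8558 to 9307. Genes near 10 counts, such as *Prss35* and *Cma1*, are limited by depth.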
